A study of Mus musculus with 4 samples.

Results

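Cytochrome P450 families 1, 2 and 3 are the microsomal heme monooxygenases that handle most drugs and many steroids and fatty acids in liver. Their genes were taken as every probe set whose only gene symbol in the platform annotation starts with Cyp1, Cyp2 or Cyp3 and a letter, apart from the Cyp2d subfamily. The rule found 37 probe sets for 32 genes, out of 12393 genes read by a probe set with a single symbol. Another 2 probe sets carry the symbols of several near-identical genes of the 2a and 3a subfamilies and were left out.

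The values come from Affymetrix microarrays of liver RNA, with 1 signal per probe set and array on a linear scale in arbitrary units. The livers were from adult male C57BL6 mice killed on day 6 after an injection of adenovirus. The Ad-lipin group (2 arrays) received adenovirus driving mouse lipin 1beta, a phosphatidate phosphatase that also acts with PPAR alpha and PGC-1 alpha in the nucleus, and the GFP control group (2 arrays) received adenovirus driving green fluorescent protein. Both groups therefore carry adenovirus, no mice without virus were analysed here, and nothing in the labels says whether each array had its own mouse. The p-values therefore describe how far these samples scatter, which may be technical scatter only.

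P450 enzymes of these families sit in the endoplasmic reticulum and take electrons from cytochrome P450 reductase, helped by cytochrome b5. Their genes are switched on by ligand-activated factors: the aryl hydrocarbon receptor (Ahr) acts on family 1, the constitutive androstane receptor (Nr1i3) on subfamily 2b and part of 2c, and the pregnane X receptor (Nr1i2) on subfamily 3a, over a basal drive from hepatocyte factors such as HNF4 alpha. Many are zoned along the liver lobule, with Cyp1a2 and Cyp2e1 near the central vein and Cyp2f2 near the portal tract, and several, such as Cyp2b9, Cyp2b13 and Cyp3a44, are higher in female than in male mice.

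Of the 4 arrays, 3 are labelled total RNA and Ad-lipin replicate 2 polyA RNA. Lpin1, the overexpressed gene, read 2261 and 6719 in Ad-lipin replicates 1 and 2, against 2730 and 1430 in GFP replicates 1 and 2, on its dimmer probe set. Its brighter one read 3854 and 11087 in Ad-lipin, against 7082 and 4632 in GFP, so Ad-lipin replicate 1 did not exceed the GFP range and every direction below rests on the labels. The 3' to 5' signal ratio of actin, a sign of RNA quality, was 2.85 and 2.86 in Ad-lipin replicates 1 and 2, against 1.77 and 4.22 in GFP replicates 1 and 2, so the GFP arrays lay on either side of the Ad-lipin arrays. The highest single signal was 2248064 in GFP replicate 2, where the other 3 arrays reached 766554 to 1069906. Of the 12 hepatocyte markers tested, 10 were above 0 in Ad-lipin minus GFP on the log2 scale, against 50.1% of all genes tested. Albumin, the main plasma protein of hepatocytes, read 809335 and 912532 in Ad-lipin, against 571407 and 1069105 in GFP, so the liver label is borne out by its defining marker in both groups.

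No P450 gene among the 26 bright enough to test separated Ad-lipin from GFP beyond the spread between arrays, and 6 of the 32 genes were too dim to test. With limma over 13576 probe sets, 0 of the 29 P450 probe sets tested passed an adjusted p threshold of 0.05 upward and 0 downward, against 0% of all probe sets in each direction. The limma adjusted p of the 29 ran from 0.962 to 0.987, and 0 of them had an unadjusted p under 0.05, against 4.39% of all probe sets. The 26 genes tested, each read by its brightest tested probe set, had a median log2 difference of 0.0025 (Ad-lipin minus GFP), beside 0.0015 over all 8493 genes, and 13 lay above 0, against 50.1% of all genes. Single genes ran from -1.34 for Cyp1a1 to 1.16 for Cyp1b1. Both were dim, with geometric means of 523 and 466 over the 4 arrays, where the filter asked for 373. Each passed the filter only through the group where it was higher, so these extremes are tied to the filter. For any 1 gene, an exact two-sided permutation of 2 Ad-lipin and 2 GFP arrays has 0.333 as its smallest possible p.

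The groups did not overlap in 6 of the 26 genes, against 33.3% of all genes tested. In 4 of the 26 genes (Cyp1b1, Cyp2a12, Cyp2b9 and Cyp2j5) both Ad-lipin arrays lay above both GFP arrays, against 17.3% of all genes, and in 2 (Cyp2g1 and Cyp3a13) both lay below, against 16.0%. Cyp1b1 was among those tested only through its Ad-lipin signals, as given above. Another order occurred more often. In 11 genes, or 42.3%, both Ad-lipin arrays lay between the GFP arrays, against 19.6% of all genes tested. These shares are a description, and whether the families differ from other genes was not tested.

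**Figure D1:**
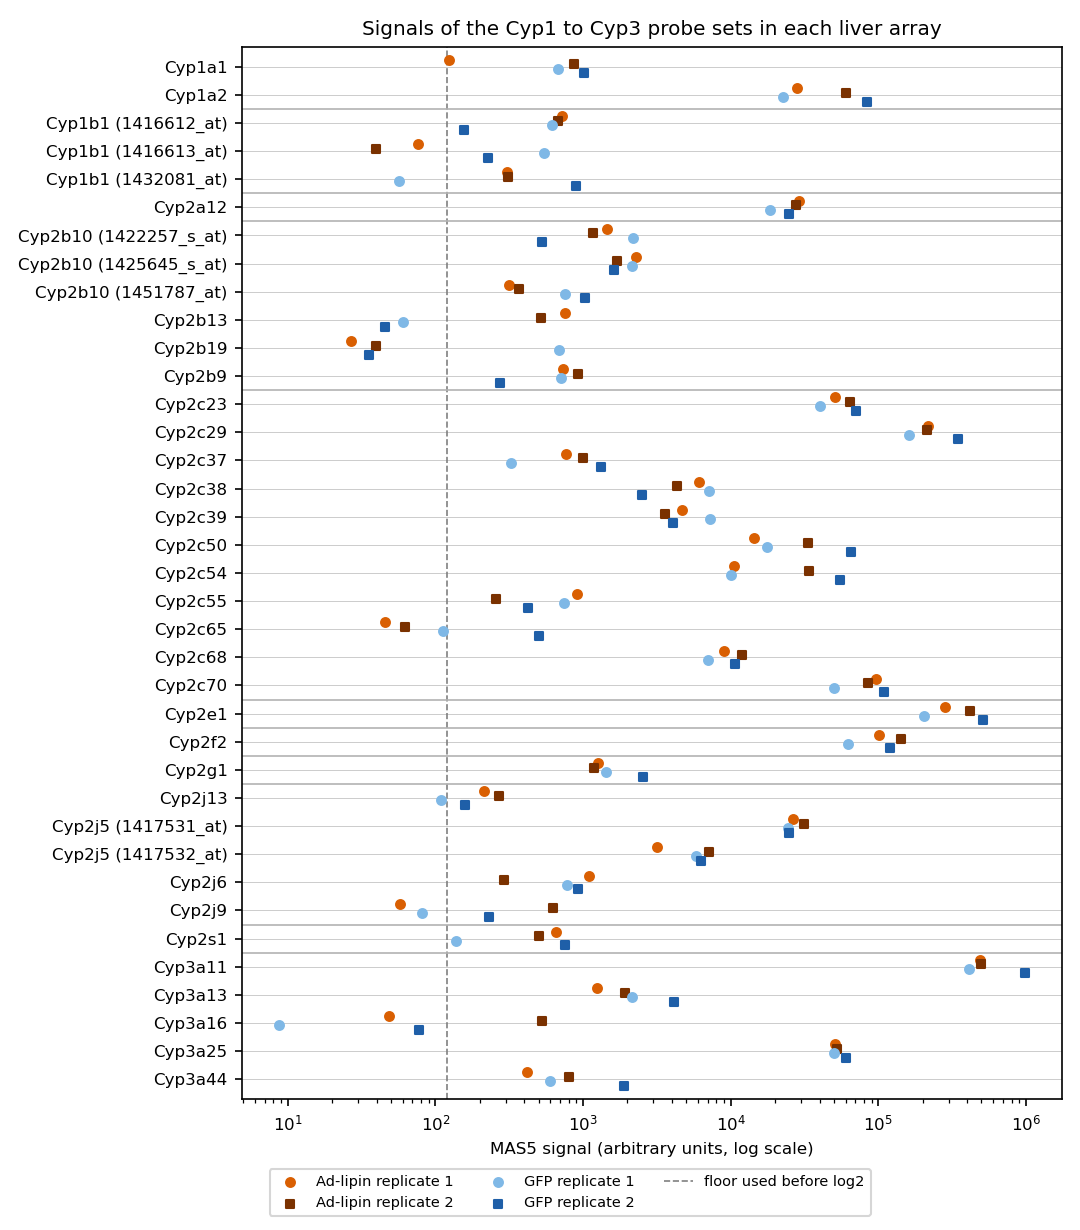
MAS5 signal (arbitrary units, log scale) of each of the 37 Cyp1 to Cyp3 probe sets, by subfamily, in Ad-lipin replicates 1 and 2 and GFP replicates 1 and 2; the dashed line is the floor of 119.5 used before log2. For Cyp3a11, Cyp2e1 and Cyp1a2 the GFP arrays lie at either end and the Ad-lipin arrays between them.

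The spread between the GFP arrays was the main feature of the genes that hepatocytes are best known for. Cyp3a11, the chief target of the pregnane X receptor in mouse liver, read 488865 and 499929 in Ad-lipin, against 409482 and 981599 in GFP. The Ad-lipin arrays were close to each other and inside the GFP range, with GFP replicate 2 at 2.40 times GFP replicate 1. The log2 difference was -0.36 ± 0.70 (limma SE, n = 2 per group).

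Cyp2e1, which oxidises ethanol and acetaminophen and sits around the central vein, read 283330 and 417653 in Ad-lipin, against 202654 and 515325 in GFP. Its log2 difference was 0.09 ± 0.62, with the Ad-lipin arrays again inside the GFP range. Cyp1a2, the pericentral enzyme of caffeine and arylamine oxidation, read 28361 and 60572 in Ad-lipin, against 22755 and 83910 in GFP, a log2 difference of -0.08 ± 0.52. In both genes replicate 2 of each group read above replicate 1, and the replicate numbers are not known to pair the mice.

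Cyp1a1, the classic gene induced through the aryl hydrocarbon receptor, stands next to Cyp1a2 in the genome. The windows of 250 bases before their RefSeq starts (GRCm38.p6) are shown because the lowest array differed between these neighbours. Capitals mark exact matches, on either strand, to TATAAA (the TATA box) and GCGTG (the core bound by the aryl hydrocarbon receptor).
Cyp1a1, chr9:57697363-57697612, plus strand: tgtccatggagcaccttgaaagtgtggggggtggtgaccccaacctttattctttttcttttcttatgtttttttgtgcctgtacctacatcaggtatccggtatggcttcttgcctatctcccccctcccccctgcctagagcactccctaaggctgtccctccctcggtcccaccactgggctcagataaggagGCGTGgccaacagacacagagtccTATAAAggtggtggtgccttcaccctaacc
Cyp1a2, chr9:57683656-57683905, minus strand: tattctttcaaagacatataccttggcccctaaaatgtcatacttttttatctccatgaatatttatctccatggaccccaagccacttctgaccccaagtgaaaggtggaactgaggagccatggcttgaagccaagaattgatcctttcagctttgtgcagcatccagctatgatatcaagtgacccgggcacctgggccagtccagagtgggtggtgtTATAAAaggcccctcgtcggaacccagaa
The GCGTG match in the Cyp1a1 window begins at base -54 and the TATAAA matches at -30 in Cyp1a1 and -29 in Cyp1a2, counted from the start. GCGTG occurs in 28.2% and TATAAA in 12.4% of all 32851 windows of this length in the RefSeq table. The Cyp1a1 probe set read 124 and 866 in Ad-lipin, against 682 and 1019 in GFP. Ad-lipin replicate 1 alone was low, and the other 3 arrays lay together. The log2 difference was -1.34 ± 1.20, and 0.06 without Ad-lipin replicate 1. In both genes replicate 1 of each group read below replicate 2, and GFP replicate 2 was the highest array. The lowest array was Ad-lipin replicate 1 for Cyp1a1, with a signal near the floor, and GFP replicate 1 for Cyp1a2.

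Cyp1b1, an enzyme of hydrocarbon and estrogen oxidation found mostly outside hepatocytes, was read by 3 probe sets that disagreed. The one bright enough to test had 717 and 676 in Ad-lipin, against 620 and 157 in GFP, a log2 difference of 1.16 ± 1.25. GFP replicate 2 was the low array, GFP replicate 1 lay just under the Ad-lipin arrays, and without GFP replicate 2 the difference was 0.17. Of the untested probe sets, 1 read 76.2 and 39.4 in Ad-lipin, both under the floor of 119.5, against 543 and 226 in GFP, and the other read 305 and 311 in Ad-lipin, against 57.2 and 895 in GFP. The 3 probe sets of this gene thus gave 3 different orders of the arrays.

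Subfamily 2b holds the standard target of the constitutive androstane receptor, Cyp2b10, together with Cyp2b9 and Cyp2b13, which female mice express more than males. Cyp2b13 gave the widest separation among all 37 probe sets, although it was too dim to be tested. It read 758 and 522 in Ad-lipin, against 60.8 and 45.3 in GFP, and both GFP signals were under the floor. On the floored scale its log2 difference was 2.40 ± 0.62 when no filter was applied, with an unadjusted p of 0.0216 and a limma adjusted p of 0.836. The floor made the GFP values equal, with a log2 gap of 0. The SE and p of this gene therefore hold no scatter between its GFP arrays. It was singled out after its values were seen. Cyp2b9 read 736 and 921 in Ad-lipin, against 706 and 273 in GFP. Its groups did not overlap, but GFP replicate 1 lay close to Ad-lipin replicate 1, and the log2 difference of 0.91 ± 0.99 was 0.22 without GFP replicate 2.

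The windows before the starts of the 3 genes are shown because both Ad-lipin arrays read above both GFP arrays for Cyp2b9 and Cyp2b13 and for no probe set of Cyp2b10. Capitals mark exact matches, on either strand, to TTGCNNAA (a C/EBP site) and GCGTG.
Cyp2b9, chr7:26173159-26173408, plus strand: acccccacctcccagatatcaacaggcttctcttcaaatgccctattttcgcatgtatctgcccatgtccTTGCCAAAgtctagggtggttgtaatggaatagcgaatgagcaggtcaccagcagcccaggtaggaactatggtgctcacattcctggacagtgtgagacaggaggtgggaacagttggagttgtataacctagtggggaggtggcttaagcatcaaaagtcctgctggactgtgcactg
Cyp2b13, chr7:26061245-26061494, plus strand: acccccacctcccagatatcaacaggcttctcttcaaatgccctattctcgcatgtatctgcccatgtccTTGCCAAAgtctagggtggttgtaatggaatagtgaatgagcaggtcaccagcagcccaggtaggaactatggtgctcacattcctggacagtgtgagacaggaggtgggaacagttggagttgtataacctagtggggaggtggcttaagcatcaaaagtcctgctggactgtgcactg
Cyp2b10, chr7:25897408-25897657, plus strand: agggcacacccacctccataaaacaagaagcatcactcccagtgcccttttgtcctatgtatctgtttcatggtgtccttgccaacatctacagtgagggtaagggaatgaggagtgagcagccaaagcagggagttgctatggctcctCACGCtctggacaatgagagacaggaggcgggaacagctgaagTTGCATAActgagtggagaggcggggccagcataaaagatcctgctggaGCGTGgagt
The Cyp2b9 and Cyp2b13 windows are identical at 248 of 250 aligned bases, or 99.2%. The Cyp2b10 window is identical to either at 182 of 240 aligned bases, or 75.8%. The TTGCNNAA match begins at base -180 in Cyp2b9 and Cyp2b13 and at -58 in Cyp2b10, and 9.56% of all windows hold this motif. Genes this alike may share probes, so the readings of Cyp2b9, Cyp2b13 and Cyp2b10 may not be independent, which was not tested.

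Cyp2b10 was read by 3 tested probe sets with opposite signs. The most specific one by its suffix read 317 and 366 in Ad-lipin, against 755 and 1037 in GFP, so both Ad-lipin arrays lay below, with a log2 difference of -1.38 ± 1.04. Both Ad-lipin signals were under the filter's 373, so this probe set was tested through its GFP signals. The probe set with the highest mean, whose suffix marks probes that can match several transcripts, read 2284 and 1693 in Ad-lipin, against 2145 and 1610 in GFP, a difference of 0.08 ± 0.49 on the log2 scale. The remaining probe set, with the same suffix, read 1445 and 1170 in Ad-lipin, against 2194 and 529 in GFP, a log2 difference of 0.27 ± 0.71. The sign for Cyp2b10 thus depended on the probe set. Cyp2b19, a keratinocyte epoxygenase, was not tested: it read 26.7 and 39.5 in Ad-lipin, against 689 and 35.5 in GFP, and 3 of its 4 signals lay under the floor.

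**Figure D2:**
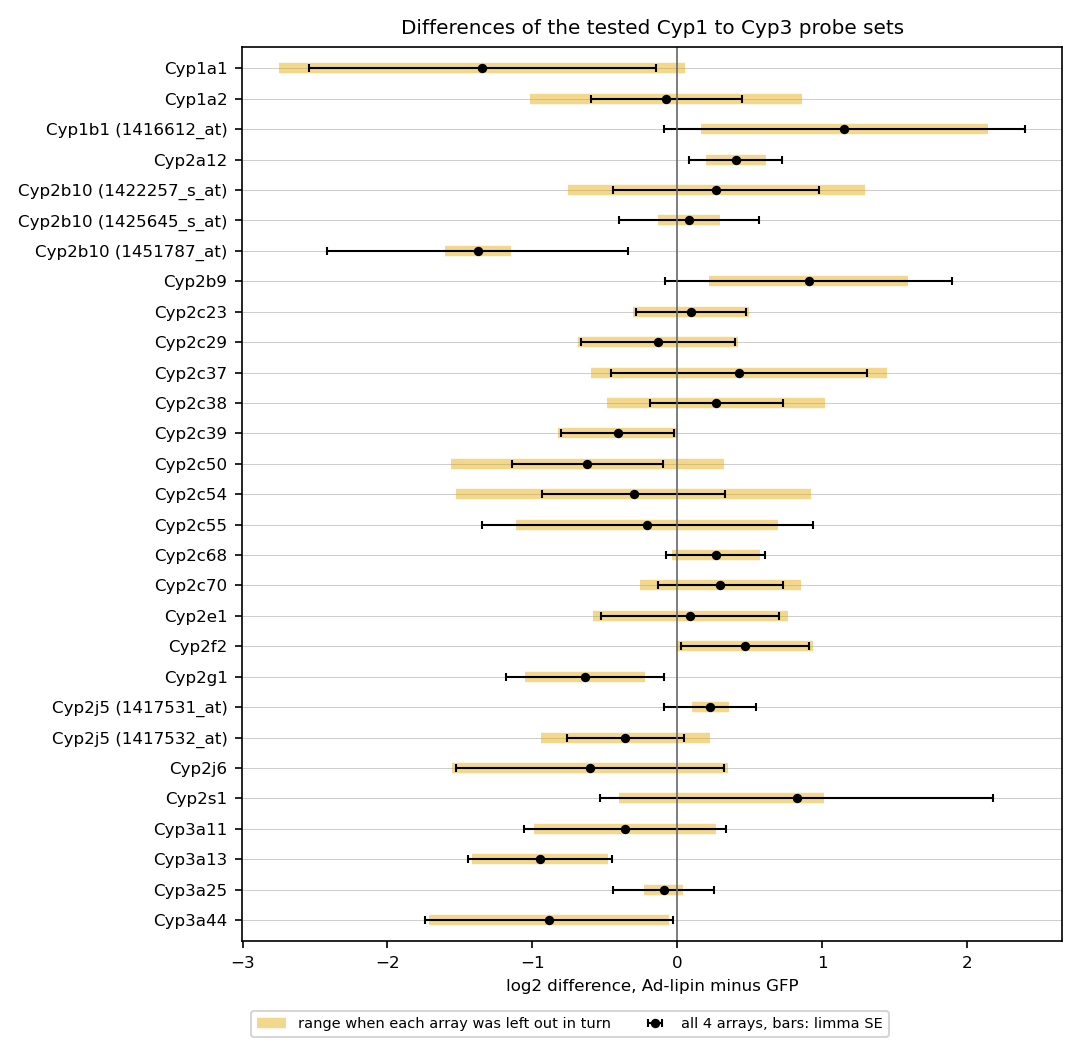
Log2 difference (Ad-lipin minus GFP) of the 29 tested probe sets, with limma's standard error as the bar, and the range of the difference when each array was left out in turn as the shaded band. The band crossed 0 for 21 of the 29 probe sets. For Cyp2s1 the band lacks the run without GFP replicate 2, where the probe set fell under the filter.

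Subfamily 2c, the epoxygenases and hydroxylases of arachidonic acid, steroids and bile acids, held 10 tested genes with a median log2 difference of -0.02. In 0 of the 10 were the groups apart, against 33.3% of all genes. In 6 (Cyp2c23, Cyp2c29, Cyp2c37, Cyp2c38, Cyp2c54 and Cyp2c70) both Ad-lipin arrays lay between the GFP arrays, against 19.6%. Cyp2c29, a main hepatic member, read 215825 and 214389 in Ad-lipin, against 160620 and 346183 in GFP, a log2 difference of -0.13 ± 0.53. The Ad-lipin arrays were nearly equal, whereas GFP replicate 2 stood at 2.16 times GFP replicate 1. Cyp2c37, an epoxygenase, read 773 and 1003 in Ad-lipin, against 323 and 1330 in GFP (log2 0.43 ± 0.89).

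Cyp2c50 and Cyp2c54, epoxygenases whose genes are neighbours, both had their high values in replicate 2 of each group. Cyp2c50 read 14468 and 33445 in Ad-lipin, against 17570 and 64976 in GFP, a log2 difference of -0.62 ± 0.52. Cyp2c54 read 10618 and 33996 in Ad-lipin, against 9993 and 54740 in GFP (log2 -0.30 ± 0.63). GFP replicate 2 stood at 3.70 times GFP replicate 1 for Cyp2c50 and 5.48 times for Cyp2c54, and Ad-lipin replicate 2 at 2.31 and 3.20 times Ad-lipin replicate 1. Without GFP replicate 2 both differences turned positive, at 0.32 for Cyp2c50 and 0.93 for Cyp2c54, and without GFP replicate 1 they were -1.56 and -1.53. These closely related transcripts may share probe matches, which was not tested.

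Cyp2c39, a retinoic acid hydroxylase, read 4669 and 3585 in Ad-lipin, against 7249 and 4082 in GFP, a log2 difference of -0.41 ± 0.39. Here GFP replicate 1 was the high array, unlike in Cyp2c50 and Cyp2c54. Cyp2c38 had the same high array, with 6074 and 4312 in Ad-lipin, against 7148 and 2520 in GFP (log2 0.27 ± 0.46). Cyp2c68 gave 0.27 ± 0.34 on the log2 scale, with 9058 and 11942 in Ad-lipin, against 7011 and 10640 in GFP. The groups overlapped in all 3 of these genes.

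Cyp2c70, which makes the muricholic bile acids of mice, read 96904 and 85760 in Ad-lipin, against 50342 and 109052 in GFP (log2 0.30 ± 0.43). Its low array was GFP replicate 1. Cyp2c23, an arachidonic acid epoxygenase, read 50658 and 64002 in Ad-lipin, against 40432 and 70288 in GFP (log2 0.10 ± 0.38). Cyp2c55, known from the intestine, read 909 and 259 in Ad-lipin, against 739 and 424 in GFP (log2 -0.21 ± 1.14). Cyp2c65, another intestinal gene, was not tested, as 3 of its signals were under the floor: 45.8 and 62.1 in Ad-lipin and 113 in GFP replicate 1, beside 500 in GFP replicate 2.

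A match to CAAAGTCCA, a sequence favoured by HNF4 alpha, was found on either strand in the windows of 5 of the 29 member genes that have one in the RefSeq table, namely Cyp2c65, Cyp2c68, Cyp2c70, Cyp3a11 and Cyp3a16, against 0.384% of all windows. A gene counted if any of its windows matched (32 windows for the 29 genes), whereas the share is over single windows. Cyp2c70 and Cyp3a11 are shown as members of different subfamilies that hold the match, with TATAAA matches also in capitals.
Cyp2c70, chr19:40187287-40187536, minus strand: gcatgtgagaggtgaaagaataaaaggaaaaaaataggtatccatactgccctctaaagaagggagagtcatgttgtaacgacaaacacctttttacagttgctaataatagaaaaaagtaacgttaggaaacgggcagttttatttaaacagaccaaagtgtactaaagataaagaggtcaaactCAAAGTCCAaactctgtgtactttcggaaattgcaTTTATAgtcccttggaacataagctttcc
Cyp3a11, chr5:145879855-145880104, minus strand: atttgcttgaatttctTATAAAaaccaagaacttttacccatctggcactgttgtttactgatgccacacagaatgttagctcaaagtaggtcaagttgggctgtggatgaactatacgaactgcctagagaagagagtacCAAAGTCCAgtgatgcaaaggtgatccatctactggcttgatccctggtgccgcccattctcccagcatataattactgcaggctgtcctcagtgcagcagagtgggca
The CAAAGTCCA match begins at base -64 in Cyp2c70 and at -109 in Cyp3a11. Related genes share sequence by descent, so the 5 are not independent, and a match shows letters and no binding. Among the same 29 genes, TATAAA was found in 13, GCGTG in 6, TTGCNNAA in 7 and GTTAAT, part of an HNF1 site, in 1 (Cyp2c68), the last against 6.43% of all windows. Of the genes with CAAAGTCCA, Cyp2c65 and Cyp3a16 were not tested. Cyp2c70, Cyp2c68 and Cyp3a11 had log2 differences of 0.30 ± 0.43, 0.27 ± 0.34 and -0.36 ± 0.70, each smaller than its SE. Each of these changed sign when an array was left out, so none had a settled direction.

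Further subfamilies were represented by a single tested gene each. Cyp2f2, the naphthalene oxidase of periportal hepatocytes and of club cells in lung, read 100372 and 142722 in Ad-lipin, against 62383 and 120153 in GFP, a log2 difference of 0.47 ± 0.44. The groups overlapped, and without GFP replicate 1 the difference was -0.0056. Cyp2a12, a steroid and bile acid hydroxylase, had both Ad-lipin arrays above both GFP arrays, with 28883 and 27795 in Ad-lipin, against 18555 and 24714 in GFP (log2 0.40 ± 0.32). It stayed positive when each array was left out in turn, from 0.20 to 0.61. Cyp2g1, an olfactory gene, lay on the other side, with 1258 and 1194 in Ad-lipin, against 1430 and 2535 in GFP (log2 -0.64 ± 0.55). Cyp2s1, an epithelial enzyme, read 652 and 505 in Ad-lipin, against 138 and 760 in GFP (log2 0.83 ± 1.36), and its groups overlapped.

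Subfamily 2j, epoxygenases of arachidonic acid, was read by 5 probe sets for 4 genes. Cyp2j5, a member of liver and kidney, read 26360 and 31520 in Ad-lipin, against 24405 and 24787 in GFP, on its brighter probe set (log2 0.23 ± 0.32). The GFP arrays were nearly equal there and both lay below Ad-lipin. Its dimmer probe set had the opposite sign, with 3154 and 7097 in Ad-lipin, against 5837 and 6293 in GFP (log2 -0.36 ± 0.40). Cyp2j6 read 1091 and 290 in Ad-lipin, against 783 and 930 in GFP (log2 -0.60 ± 0.93), where Ad-lipin replicate 2 was the low array.

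Cyp2j13 and Cyp2j9 were too dim to test. Cyp2j13 read 214 and 269 in Ad-lipin, against 110 and 160 in GFP, with both Ad-lipin arrays above both GFP arrays. Cyp2j9 read 57.7 and 631 in Ad-lipin, against 81 and 229 in GFP, and only Ad-lipin replicate 2 stood out. When no filter was applied, the limma adjusted p was 0.836 for Cyp2j13 and 0.900 for Cyp2j9.

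In subfamily 3a all 4 tested genes had negative log2 differences, with a median of -0.62, and GFP replicate 2 was the highest array in each. Cyp3a13, a steroid and drug hydroxylase of liver and intestine, had the smallest unadjusted p of the 29 probe sets, 0.0758. It read 1240 and 1917 in Ad-lipin, against 2149 and 4117 in GFP, so both Ad-lipin arrays lay below both GFP arrays, and its log2 difference was -0.95 ± 0.50 (limma adjusted p = 0.962). Without GFP replicate 2 the difference was -0.48.

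Cyp3a44, a female-predominant gene, read 417 and 802 in Ad-lipin, against 601 and 1895 in GFP (log2 -0.88 ± 0.86, and -0.05 without GFP replicate 2). Cyp3a25, a hydroxylase of adult liver, had the narrowest range over the 4 arrays among the tested probe sets, with 50912 and 52612 in Ad-lipin, against 50207 and 60573 in GFP (log2 -0.09 ± 0.35). Cyp3a16, a fetal gene, was not tested; it read 48.7 and 524 in Ad-lipin, against 8.8 and 77.1 in GFP. Without GFP replicate 2 the median of the subfamily was -0.0054.

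The same high and low arrays recurred across the families. GFP replicate 2 was the highest array in 15 of the 26 tested genes, against 34.2% of all genes, and GFP replicate 1 the lowest in 14, against 25.5%. In 10 genes both Ad-lipin arrays lay between them with GFP replicate 2 on top, against 11.4%. Of the 12 tested genes with a geometric mean signal of 10000 or more, GFP replicate 1 was the lowest array in 11, the exception being Cyp2c50, where Ad-lipin replicate 1 was lowest. It was the lowest in 31.2% of all 609 genes in that range. GFP replicate 2 was the highest in 9 of the 12, against 32.5%, and both Ad-lipin arrays lay between the GFP arrays in 8, against 19.9%. Among all 46 genes with a geometric mean of 100000 or more, of which 4 belong to these families, GFP replicate 1 was the lowest in 58.7% and GFP replicate 2 the highest in 63.0%, so the order was frequent in the brightest genes generally. The actin 3' to 5' ratio ran in the same order, with 2.85 and 2.86 in Ad-lipin between 1.77 in GFP replicate 1 and 4.22 in GFP replicate 2. The part of RNA quality and of signal range in the P450 values was not tested.

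**Figure D3:**
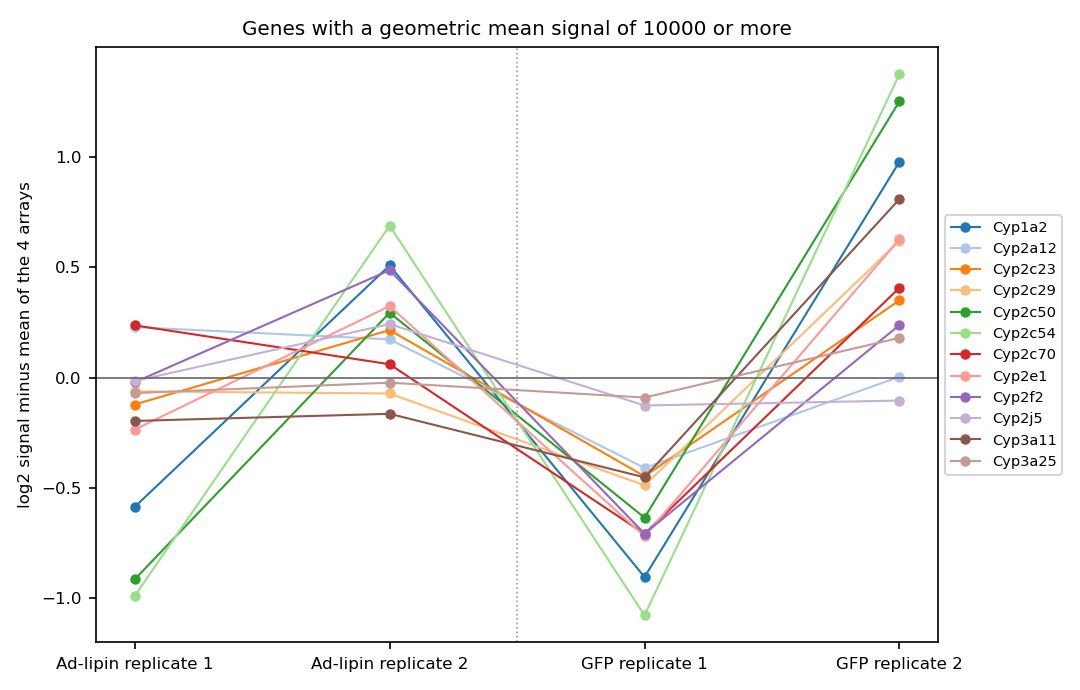
Log2 signal minus the mean of the 4 arrays, for the 12 tested genes with a geometric mean signal of 10000 or more; each line is a gene and the dotted line parts Ad-lipin from GFP. GFP replicate 1 is the lowest array in 11 of the 12 genes and GFP replicate 2 the highest in 9.

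Over all 26 tested genes, the median deviation from the mean of the 4 arrays was -0.04 and 0.20 in Ad-lipin replicates 1 and 2, and -0.40 and 0.42 in GFP replicates 1 and 2, on the log2 scale. Within a pair of arrays the genes differed by a median of 0.39 in Ad-lipin and 1.03 in GFP, beside 0.53 and 0.68 over all genes. The gap between the GFP arrays exceeded the group difference in 22 of the 26 genes, against 63.7% of all genes. The direction of the median over these genes depended on which GFP array was left out, whereas some single genes, such as Cyp2a12 and Cyp3a13, kept their sign. In the runs below, the filter and the brightest probe set of each gene were chosen anew from the remaining arrays. Genes and probe sets can thus differ from the main fit. Without GFP replicate 1, Cyp1b1 was read by another probe set, at -1.54 on the log2 scale, where its main probe set gave 2.14. Without GFP replicate 1, Ad-lipin lay below the remaining GFP array in 16 of 26 genes, against 40.9% of all genes. It lay above that array in 5, against 33.1%. The median log2 difference was -0.49, beside -0.15 over all genes. Without GFP replicate 2, Ad-lipin lay above the remaining GFP array in 15 of 25 genes, against 36.6%, and below it in 4, against 29.9%. The median was 0.24, beside 0.0072 over all genes. Without Ad-lipin replicate 1, the remaining array lay above GFP in 6 of 25 genes, against 29.7%, and below in 5, against 32.8%. Without Ad-lipin replicate 2 it lay above in 7 of 26, against 32.7%, and below in 5, against 30.8%.

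**Figure D4:**
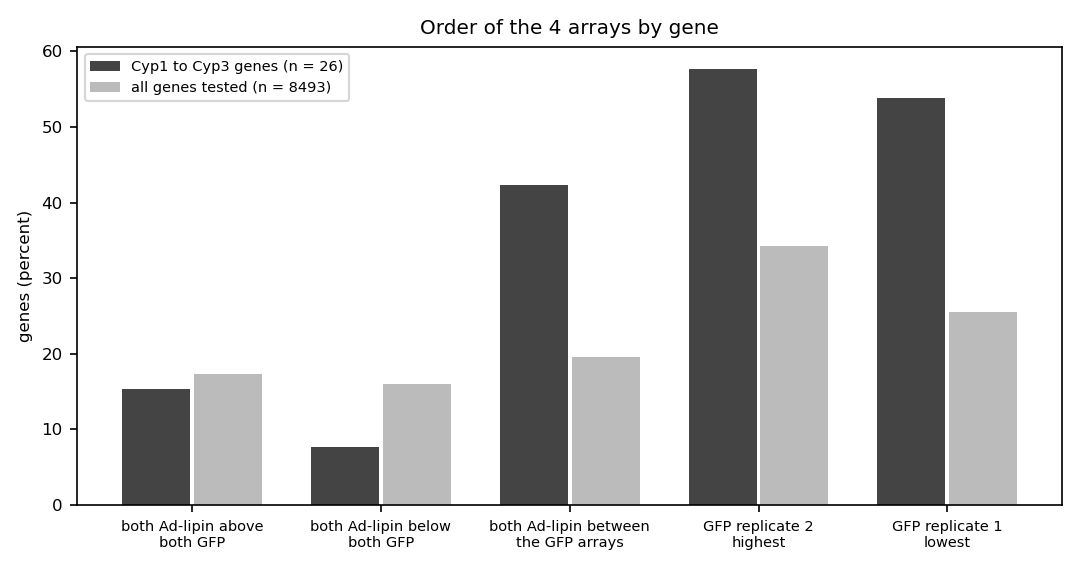
Share of genes (percent) with a given order of the 4 arrays, for the 26 tested Cyp1 to Cyp3 genes and for all 8493 genes tested. GFP replicate 2 was highest in 57.7% of the P450 genes and GFP replicate 1 lowest in 53.8%.

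GFP replicate 1 was also the lowest array in 9 of the 12 tested hepatocyte markers, against 25.5% of all genes. It was lowest in 58.7% of the genes with a geometric mean of 100000 or more. The 12 of 15 listed markers with a probe set, Cyp2e1 among them, all passed the filter and had medians of -0.04 and 0.48 in Ad-lipin replicates 1 and 2, and -0.53 and 0.17 in GFP replicates 1 and 2, relative to the mean of the 4 arrays on the log2 scale. Their summed signals were 3653991 and 4793727 in Ad-lipin, against 2599622 and 5076786 in GFP. Tested pericentral genes outside the P450 families (15 of 20 listed) had medians of -0.36 and 0.31 in Ad-lipin, and -0.34 and 0.36 in GFP. Their part in the P450 values was not tested. In whole liver, fewer cells of a type and less RNA per cell cannot be told apart.

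The partners and regulators of these enzymes were measured in lists chosen from textbook knowledge, and 0 genes passed limma's test in either direction in any of them. Cyb5a, the cytochrome b5 of the microsomes, read 56746 and 97920 in Ad-lipin, against 54463 and 103503 in GFP, the order seen in Cyp1a2, with a log2 difference of -0.01 ± 0.43, and of 0.019 with each array centred on its median. Pgrmc2, a heme-binding membrane protein, had both Ad-lipin arrays above, with 3339 and 3337, against 1991 and 1357 in GFP (log2 1.02 ± 0.45). Cyb5r3 and Cyb5b, further parts of the cytochrome b5 system, had 0.40 and 0.25 on the log2 scale, and both signs turned with the choice of probe sets. Cyb5r3 was -1.19 when the probe sets open to several transcripts were dropped and -0.10 when its probe sets were averaged, and Cyb5b was -0.15 when averaged. The 7 tested redox partners had a median of -0.01.

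Among the sensors, Nr1i3 read 1166 and 4254 in Ad-lipin, against 1412 and 2660 in GFP (log2 0.20 ± 0.60), and Nr1i2 read 955 and 1090, against 685 and 1159 in GFP (log2 0.20 ± 0.70). Ahr had 3454 and 3231 in Ad-lipin, against 3514 and 4587 in GFP, on its brighter probe set (log2 -0.27 ± 0.38), and -1.99 ± 1.17 on the dimmer one. Arnt, the partner of Ahr, differed by -0.65 ± 0.85. The smallest p among the 21 regulators tested belonged to Hnf4a, the clock output factor Dbp and Cebpa, the main C/EBP factor of liver, with log2 differences of 0.95, 1.11 and 0.75. For Hnf4a the difference was -0.033 without probe sets that can match several transcripts. The list's median was 0.20, and in 6 of its genes both Ad-lipin arrays lay above both GFP arrays, against 17.3% of all genes, and in 2 both lay below, against 16.0%.

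Other targets of the same receptors did not share a direction. Ces2a, a carboxylesterase, read 19010 and 23518 in Ad-lipin, against 10875 and 10920 in GFP (log2 0.96 ± 0.31), while the aldehyde dehydrogenase Aldh1a7 had -0.50 ± 0.35 and the drug efflux pump Abcb1a 1.36 ± 0.97. The median of the 13 tested targets of the androstane and pregnane X receptors was -0.05, with 4 above 0, against 50.1% of all genes. Of 2 tested targets of the aryl hydrocarbon receptor outside the P450 genes, the quinone reductase Nqo1 had 1.24 ± 0.95 and Tiparp, a repressor of the receptor, -0.77 ± 0.76. For heme, Alas1, the rate-limiting enzyme of its synthesis, read 6659 and 11727 in Ad-lipin, against 7889 and 4119 in GFP (log2 0.63 ± 0.40), with -0.77 ± 0.65 on a second probe set and -0.069 when they were averaged. Urod and Alad, later enzymes of the path, had 0.77 and 0.34, and the 8 tested heme genes a median of 0.20.

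Of the pericentral genes outside the families, Axin2, a target of Wnt signalling, had the smallest p, with 281 and 718 in Ad-lipin, against 1697 and 2059 in GFP (log2 -2.06 ± 0.75, limma adjusted p = 0.962). Both Ad-lipin arrays lay below both GFP arrays. Slc13a3, a dicarboxylate transporter, had -1.37 ± 0.86 and Aldh1a1, a retinal dehydrogenase, 0.35 ± 0.38. The list's median was -0.04 over 15 genes. The 15 tested periportal genes had a median of 0.14.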

How the data were processed

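Liver RNA of 4 samples, 2 per group by their titles, was measured. The deposited values are array intensity signals on a linear scale. The submitters' processing notes name Mas5, and its version and scaling target are not stated there. Their 2% trimmed mean was 1501 on every array, and no further normalization was applied. Detection calls were not used, so signal over background is unknown. Precision is limited by having 4 arrays.

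The 64 control probe sets among 22690 were dropped. Before log2, every signal below the floor of 119.5 (20th percentile) was set to that floor, and the 13576 probe sets whose geometric mean reached 373 (the 40th percentile) entered the model. The fit used limma 3.58.1 (R 4.3.3) with lmFit and eBayes with an intensity trend, and two-sided p-values were adjusted by Benjamini-Hochberg over every probe set fitted. The fit was tested on simulated data. Fold changes of probe sets with signals under the floor can be understated.

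Names came from the platform annotation, and all 32 member genes matched RefSeq by Entrez identifier. Promoter sequences are RefSeq's (GRCm38.p6), found for 29. The values name no build.

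The members and lists were chosen with earlier results of these data known. Per-array values were planned for 14 well-known members (Cyp2a5 has no probe set of its own), up to 6 members per direction by smallest p, members with discordant probe sets and up to 3 genes of a related list; values of the other members were added after the data were seen. Alternatives covered normalization, floor, filter, eBayes settings, the replicate block, the threshold, probe set choice and leaving out each array. Lists of acute phase, sex-biased, other microsomal and other cell type genes were used only as described in the closing section.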

Additional observations from a re-analysis of the deposited data

How the results depend on the processing

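No alternative called a P450 probe set, and 244 of 247 log2 differences of P450 probe sets under settings that kept all arrays held their sign. Counts of P450 genes with both Ad-lipin arrays above both GFP arrays were 2 with quantile normalization, 1 with median centring and 2 with a filter at the 60th percentile, against 4. The median over P450 genes was 0.086 with no filter, -0.092 without probe sets that can match several transcripts, where 1 probe set of all was called higher, and -0.084 when the probe sets of a gene were averaged. With each array left out in turn, between 0 and 8 probe sets of all were called higher and 0 to 6 lower, the median over P450 genes ran from -0.49 to 0.24, Ad-lipin lay above GFP in 5 to 15 of them and below in 4 to 16. The replicate block called 34 probe sets higher and 18 lower over the whole table and 0 P450 probe sets. The differences between replicates 1 and 2 correlated at 0.028 between the groups. Such a correlation cannot show whether same-numbered samples were handled together, and the labels give only the number. Signs turned for Cyp2b10 (-1.38 without probe sets that can match several transcripts, -0.34 with the mean), Cyp2j5 (-0.064 with the mean), Hnf4a (-0.033 without such probe sets), Cyb5r3 (-1.19 and -0.10 in these settings), Cyb5b (-0.15 with the mean), Alas1 (-0.069 with the mean) and Cyb5a (0.019 with median centring). With each array left out in turn, log2 differences that changed sign ran as follows among P450 probe sets: Cyp1a1 -2.75 to 0.056, Cyp1a2 -1.02 to 0.87, Cyp2b10 -0.13 to 0.30, Cyp2c23 -0.30 to 0.49, Cyp2c29 -0.69 to 0.42, Cyp2c37 -0.59 to 1.45, Cyp2c38 -0.48 to 1.02, Cyp2c39 -0.83 to 0.0030, Cyp2c50 -1.56 to 0.32, Cyp2c54 -1.53 to 0.93, Cyp2c55 -1.11 to 0.70, Cyp2c68 -0.033 to 0.57, Cyp2c70 -0.26 to 0.86, Cyp2e1 -0.58 to 0.76, Cyp2f2 -0.0056 to 0.94, Cyp2j6 -1.55 to 0.35, Cyp2s1 -0.40 to 1.01, Cyp3a11 -0.99 to 0.27, Cyp3a25 -0.23 to 0.044, Cyp2j5 (dimmer probe set) -0.94 to 0.23 and Cyp2b10 (probe set with the middle mean) -0.75 to 1.30. The range of Cyp2s1 lacks the run without GFP replicate 2, where it fell under the filter. There its Ad-lipin signals of 652 and 505 stood against 138 in GFP replicate 1, so the upper end is understated. Among the other genes the ranges were Cyb5a -0.47 to 0.45, Cyb5b -0.028 to 0.54, Nr1i2 -0.18 to 0.58 and Nr1i3 -0.73 to 1.13. The cause was not tested.

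With 2 arrays per group and 2 residual degrees of freedom, differences of the size seen here could not be told from the spread between arrays.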

Other observations

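Gene lists beside the P450 families were looked at for other cell types and liver states, and 0 of their genes passed limma's adjusted threshold. Of the listed markers of T, NK and B cells, 13 were on the array and 8 passed the filter. The tested markers had a median log2 difference of -0.81, and 0 of the 8 lay above 0, against 50.1% of all genes. In 4 of the 8 both Ad-lipin arrays lay below both GFP arrays, against 16.0% of all genes. Cd79a, a B cell receptor component, had the lowest log2 difference of the list, -2.06 ± 1.11, with 283 and 220 in Ad-lipin, against 894 and 1217 in GFP. The other B cell genes tested differed less. Cd79b read 391 and 477 in Ad-lipin, against 456 and 435 in GFP (log2 -0.05 ± 1.26), and Ms4a1 had -0.45 ± 0.88. After Cd79a, the lowest log2 differences were those of Gzma, Cd8a and Gzmb, at -1.86, -1.20 and -1.17. Cd79a and these genes passed the filter only through their GFP signals, as their Ad-lipin geometric means lay under it. The median and the count of signs in this list are therefore tied to the filter. The summed signal of the list was 7648 and 7090 in Ad-lipin, against 9056 and 9112 in GFP.

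Kupffer cell markers had a median of 0.34 over 9 genes, endothelial markers -0.03 over 8, stellate cell markers -0.18 over 8, and the single cholangiocyte marker tested, Krt7, 0.33. Acute phase genes had a median of 0.05 over 20, other microsomal oxidases and hydrolases 0.03 over 12, female-predominant genes outside the families 0.18 over 4 and male-predominant ones 0.03 over 9. Among the other microsomal enzymes, the aldehyde oxidase Aox3 read 24811 and 34813 in Ad-lipin, against 21338 and 9803 in GFP, a log2 difference of 1.02 ± 0.38.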
